A study of Mus musculus with 401 samples.

Results

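Cumulus cells of mice at 2 and at 4 months were compared in the second of 2 sets of samples. The members were the cumulus libraries of that set whose mouse label gave 2 or 4 months and did not mark the mouse as having had no hyperovulation, which took 64 of the 401 libraries of the series and 64 of the 128 cumulus libraries of the second set. At 2 months there were 24 libraries from 5 mice and at 4 months 40 libraries from 8 mice. All mice of both groups were BDF1 (a cross of C57BL/6 and DBA/2), ate ad libitum and had been injected for hyperovulation, with either equine chorionic gonadotropin or CARD HyperOva, which the labels do not tell apart. Each library was the pool of cumulus cells around 1 oocyte at the germinal vesicle stage, taken up in a medium that holds meiosis back, and was sequenced by RamDA-seq, a full-length method for total RNA. Each mouse gave 4 to 8 libraries, so that the mouse, and not the library, is the independent unit, and tests over libraries measure in part how alike follicles of 1 ovary pair are. The labels of the complexes begin with B1 or B2, here called plates, and hold 3 and 2 of the mice at 2 months and 4 and 4 of those at 4 months.

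Cumulus cells are the granulosa cells that enclose the oocyte. They pass it metabolites through gap junctions, take up amino acids on its behalf and supply it with sterols, while factors from the oocyte hold them in the cumulus state. After the ovulatory signal they lay down a hyaluronan-rich matrix and the complex expands. The complexes here had been primed with a follicle-stimulating hormone but were taken before expansion, and both ages lie within early adult life in the mouse.

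A cluster of X-linked gene copies related to Ott (ovary testis transcribed) stood higher at 4 months in every mouse. It was chosen after its values were seen, so its summed levels are given as a description with no test. The cluster was drawn from sequence: of 32851 RefSeq promoter windows, those sharing at least 50% of the 12-base words in the 250 bases before the start of Gm10439 belonged to 9 gene models, all on the X chromosome, namely Gm15080, Gm15107, Gm15127, Luzp4, Ott, Gm15085, Gm10439, Gm15097 and Gm15091. Luzp4 and Gm15127 were also among the hub genes that the study picked from cumulus cells of its first set. The stretches of 180 bases (RefSeq, GRCm38.p6, plus strand) that lie before the RefSeq starts of the 3 models called below and of Luzp4 are printed to show how close the copies are, with capitals at the 9 positions that vary among the 6 models that could be tested. They lie at chrX:149594351-149594530 for Gm10439, chrX:149941436-149941615 for Gm15091, chrX:148663379-148663558 for Gm15127 and chrX:148882357-148882536 for Luzp4, which is inside the span that GENCODE vM21 gives this gene (X, 148857640 to 148924139).
Gm10439: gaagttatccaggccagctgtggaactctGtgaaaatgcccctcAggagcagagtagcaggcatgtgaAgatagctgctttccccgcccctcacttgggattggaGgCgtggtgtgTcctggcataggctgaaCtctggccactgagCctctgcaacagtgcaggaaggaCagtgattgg
Gm15091: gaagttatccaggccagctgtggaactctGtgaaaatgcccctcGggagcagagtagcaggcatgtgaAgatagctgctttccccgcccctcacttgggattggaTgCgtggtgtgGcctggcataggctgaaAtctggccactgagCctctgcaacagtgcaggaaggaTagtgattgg
Gm15127: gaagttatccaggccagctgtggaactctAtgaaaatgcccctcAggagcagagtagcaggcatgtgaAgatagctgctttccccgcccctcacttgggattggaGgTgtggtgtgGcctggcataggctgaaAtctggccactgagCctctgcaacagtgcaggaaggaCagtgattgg
Luzp4: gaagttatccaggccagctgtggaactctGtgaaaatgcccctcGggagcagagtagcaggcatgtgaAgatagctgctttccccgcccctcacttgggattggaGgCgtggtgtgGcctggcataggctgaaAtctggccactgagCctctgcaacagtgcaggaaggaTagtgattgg
The Gm15127 and Luzp4 stretches were each 97.8% identical to that of Gm10439 and the Gm15091 stretch 97.2%. In GENCODE vM21, the Gm10439 stretch overlaps an exon of Gm15086 and the Luzp4 stretch one of Gm15099, and the other 2 overlap no exon. With copies this alike, single reads can rarely be placed, and 87.5% to 100% of the nonzero counts of the 6 models that could be tested were not whole, since the authors divided such reads among their possible places. Levels of single copies are therefore uncertain and the sum over the 9 models is the firmer measure.

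Summed over the 9 models, the cluster stood at 0, 0.595, 0.614, 0.876 and 1.47 CPM (counts scaled to the size of each library) in the 5 mice at 2 months. In the 8 mice at 4 months it ranged from 2.82 in mouse 4mo5 to 11.9 in mouse 4mo3, with the others at 3.58, 3.92, 5.16, 5.43, 5.8 and 9.14. Every mouse at 4 months thus lay above every mouse at 2 months, on both plates. By library the sum was 0.857 ± 1.33 CPM (SD, n = 24) at 2 months, where 11 libraries held any read of the cluster, and 5.56 ± 5.26 (SD, n = 40) at 4 months, where 32 did. These are low levels, 15.34 counts in all at 2 months and 188.16 at 4 months, with libraries of 510029 to 1147286 counts. Because the libraries are pools, more cells with these transcripts and more transcripts per cell cannot be told apart, here or below.

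The same sum in the other groups of the series is given as values, with no test. Cumulus cells of mice at 9 months held 19.2 ± 13.5 CPM (SD, n = 16), with mice from 7.69 to 30.8, and those at 14 months 24.8 ± 18.3 (SD, n = 16), with mice from 15.5 to 36.4. Mice at 2 months without hyperovulation held 0.803 ± 1.41 CPM (SD, n = 32), with mice from 0 to 1.63, a range that overlapped that at 2 months with it. The groups at 4 and 9 months overlapped by mouse, as did those at 9 and 14 months. Oocytes of the mice held 0.918 to 1.54 CPM by mouse at 2 months and 0.674 to 1.92 at 4 months, which overlapped. In the first set, which used other mice, the sum was 0 and 0.692 CPM in the 2 young mice and 12.9 to 31.5 in the 4 middle-aged mice.

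**Figure D1:**
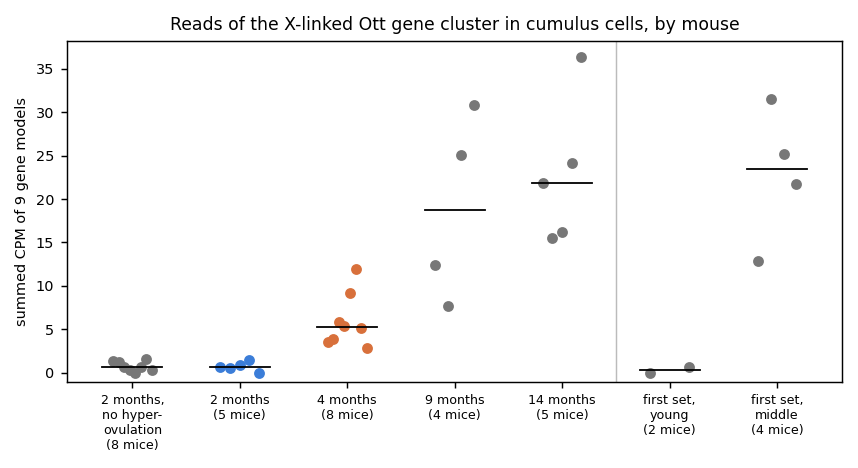
Summed level of the 9 X-linked models (CPM, vertical axis) in cumulus cells by group, with 1 point per mouse and a line at the median of the mice. The mice at 4 months sit between 2.82 and 11.9 CPM, all above the mice at 2 months (0 to 1.47), and the mice at 9 and 14 months reach 30.8 and 36.4.

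Gene by gene, 6 of the 9 models had a count in enough libraries to be tested, and 3 passed over libraries in edgeR's quasi-likelihood test, with p adjusted by Benjamini-Hochberg over all genes. Gm10439 (X, 149594570 to 149636764) held 1.73 counts over 6 libraries at 2 months and 39.24 over 26 at 4 months, with an adjusted p of 0.014. Gm15091 (X, 149941655 to 149984982) held 6.43 counts over 10 libraries and 53.32 over 30, with a log2 fold change of 2.24 ± 0.47 (SE) and an adjusted p of 0.0163. Gm15127 (X, 148663598 to 148703849) held 4.23 counts over 8 libraries and 32.79 over 28, with a log2 fold change of 1.83 ± 0.47 (SE) and an adjusted p of 0.0443. Luzp4 (17.43 counts at 4 months against 1.1), Gm15097 (14.99 against 0.85) and Gm15080 (7.93 against 0.4) did not pass, at adjusted p of 0.0514, 0.0701 and 0.185. Without mouse 2mo2 the adjusted p of Gm10439 was 0.0607 and that of Gm15091 0.0569. Without mouse 2mo36 they were 0.0518 and 0.0884, so leaving out either mouse ended both calls. The call of Gm15127 was lost without any 1 of 7 mice, with adjusted p up to 0.147. With the mouse as a correlated block in limma, Gm10439 still passed (adjusted p = 0.0467), and Gm15091 (0.0827) and Gm15127 (0.167) did not.

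Over all genes, few were called between cumulus cells of the 2 ages. Of 24847 genes tested over libraries, 99 were called higher at 4 months (0.398%) and 38 lower (0.153%) at an adjusted p under 0.05, and 2177 and 1199 passed at an unadjusted p under 0.05. With the counts summed per mouse, edgeR called 0 genes, with a smallest adjusted p of 0.283, and 1254 genes higher (5.05%) and 856 lower (3.45%) had an unadjusted p under 0.05. DESeq2 on the same sums called 6 and limma voom 0. All 137 genes called over libraries kept their direction over mice with an unadjusted p under 0.05, but both fits use the same counts. Mice of 1 age also differed from each other. With the libraries of a mouse as its replicates, 1292 of 20828 genes (6.20%) differed among the 5 mice at 2 months and 1721 of 23403 (7.35%) among the 8 at 4 months. This fit held no term for plate, and each age had mice on both plates. Differences between plates are thus counted in it as differences between mice. Of the 137 genes, 18 also differed among the mice at 2 months and 24 among those at 4 months.

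The called genes were of modest size where they were well measured. Of the 99 higher genes, 55 had a mean of at least 5 CPM, with log2 fold changes from 0.22 (Rps24) to 2.48 (Itih5), and 16, Gm10439 among them, had no count in any library at 2 months once the counts were rounded, so no fold is given for these. Of the 38 lower genes, 31 reached 5 CPM, with log2 fold changes from -0.21 (Cdc27) to -1.48 (Gjc1). Protein-coding genes made up 59 of the higher and 32 of the lower genes, which is 0.396% and 0.215% of the 14893 tested. Gene models of the class TEC, which have yet to be experimentally tested, made up 17 and 2, or 1.11% and 0.13% of 1533. Over all genes the shares were 0.398% and 0.153%. In 17 of the 137 the 5 mice at 2 months and the 8 at 4 months did not overlap, as in 56 of all 24847 genes (0.225%), and since these genes were chosen by their difference nothing is read from that. At the threshold, Gpr55 (adjusted p = 0.0494) and Gm18304 (0.0495) fell just inside and Styk1, Gm12216 and 2610306O10Rik (0.05 each, by rounding) just outside in edgeR.

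**Figure D2:**
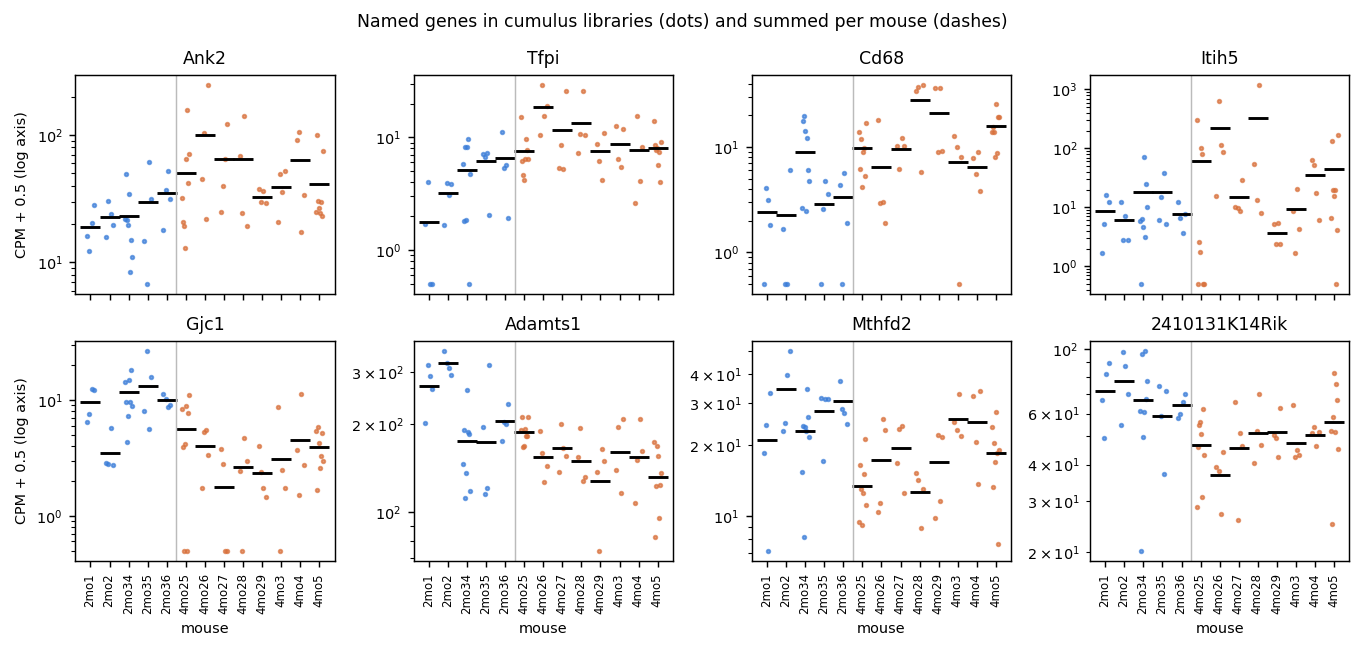
Levels of 8 named genes (CPM + 0.5, log axis) in each cumulus library (dots, blue for 2 months and orange for 4 months) and in the sum per mouse (dashes), with the 13 mice along the horizontal axis. The dashes of Tfpi and 2410131K14Rik do not overlap between the ages, mouse 2mo2 is low for Gjc1, and Itih5 is highest in mice 4mo28 and 4mo26.

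Among the lower genes, Gjc1 stood first. It encodes connexin 45, a gap junction protein (chromosome 11, 102799579 to 102819700, minus strand). Its level in the 5 mice at 2 months was 2.98, 9.15, 9.54, 11.3 and 12.8 CPM, and in the 8 at 4 months it ran from 1.26 through a median of 3.04 to 5.14. Only mouse 2mo2 at 2 months lay within the range of the mice at 4 months. Over libraries it was 9.34 ± 5.5 CPM (SD, n = 24) and 3.33 ± 2.85 (SD, n = 40), a log2 fold change of -1.48 ± 0.25 (SE) with an edgeR adjusted p of 0.00211, and over mice -1.57 ± 0.31 (unadjusted p = 9.45e-05). The call held without any 1 mouse, with adjusted p from 0.000119 to 0.0211, and under the mouse block (0.00334). The change was -1.04 ± 0.31 on plate B1 and -2.30 ± 0.38 on B2, and the test of that difference over libraries did not pass (adjusted p = 0.464). Set beside the other groups, normalised together, Gjc1 stood at 9.29 CPM at 2 months, 3.27 at 4, 1.32 at 9 and 1.26 at 14 months, and at 8.33 in mice at 2 months without hyperovulation. In the first set its middle-against-young difference did not pass (adjusted p = 0.105). Gja1, which encodes connexin 43, the main connexin between cumulus cells, stood at 7504 ± 718 CPM (SD, n = 24) and 7134 ± 903 (SD, n = 40), with a log2 fold change of -0.06 ± 0.04 and an adjusted p of 0.551.

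Several lower genes act in transcription or in the response to nutrient stress. Prdm1, which encodes the transcriptional repressor BLIMP1, stood at 10.1 to 13.8 CPM in 4 mice at 2 months and at 37.9 in mouse 2mo2, and at 2.88 to 12.5 at 4 months. Its fold change of -1.13 ± 0.28 (log2, adjusted p = 0.0388) was -0.73 without mouse 2mo2, where the call was lost (0.283). Sertad3, which encodes a transcriptional cofactor, fell from 8.91 ± 4.38 CPM (SD, n = 24) to 4.76 ± 2.74 (SD, n = 40), and 6 of the 8 mice at 4 months lay below all at 2 months. Mthfd2, an enzyme of mitochondrial folate metabolism, stood at 25.6 ± 9.5 and 17.6 ± 6.96 CPM, and Sesn2, which encodes sestrin 2, an inhibitor of mTORC1 signalling under stress, at 27.3 ± 10.2 and 18.9 ± 7.04. Each passed narrowly (adjusted p = 0.0484) and lost its call without any 1 of 9 mice. For Sesn2 the log2 fold change was -0.65 ± 0.13 on B1 and -0.10 ± 0.25 on B2.

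Other lower genes act at the cell surface, in the matrix and in membranes. Adamts1, a secreted protease that cleaves versican in the expanding cumulus matrix, ran from 173 through 204 to 322 CPM by mouse at 2 months and from 127 through 154 to 187 at 4 months. All but mouse 4mo25 at 4 months lay below every mouse at 2 months, and the log2 fold change was -0.47 ± 0.10 (adjusted p = 0.0214). Without mouse 2mo2, in which Adamts1 was highest, it was no longer called (0.118). Jam3, a junctional adhesion molecule, stood at 31.8 ± 10.8 CPM (SD, n = 24) and 22.9 ± 7.59 (SD, n = 40). Rabggtb, a subunit of the enzyme that attaches lipid anchors to Rab proteins, stood at 78.9 to 84.7 CPM in 4 mice at 2 months and at 46.2 in mouse 2mo34, against 41.7 to 64.2 at 4 months (log2 fold change -0.46 ± 0.09, adjusted p = 0.00974). Hccs, the lyase that joins heme to cytochrome c, fell by 0.44 on the log2 scale (adjusted p = 0.0452). The remaining named genes were Mroh2a (111.7 ± 54.2 against 68.1 ± 24.4 CPM), Lysmd3 (91.5 ± 30.3 against 70.7 ± 25.2) and 2410131K14Rik. The mice of 2410131K14Rik did not overlap, from 58.5 to 77.2 CPM at 2 months and from 36.2 to 55.8 at 4 months. Hccs overlaps Arhgap6 on the other strand, Jam3 the antisense model Gm48796 and Rabggtb 2 snoRNAs. Of the genes named below, Ank2, Ccbe1, Elovl6 and Rbm3 each overlap an antisense model. RamDA-seq as used here gives no strand, so part of the counts of all these genes could belong to the models they overlap.

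Several of the higher genes were high in some mice at 4 months and not in others, and the grouping used here was made after their values were seen, with no test. Itih5, which encodes a hyaluronan-binding protein of the inter-alpha-trypsin inhibitor family (chromosome 2, 10153571 to 10256529), ran from 5.66 through 8.2 to 18.0 CPM by mouse at 2 months and from 3.17 in mouse 4mo29 through 39.7 to 331 in mouse 4mo28. Mouse 4mo26 followed at 220.4 CPM and 1 library reached 1210, so that the mean of 80.6 ± 215 CPM (SD, n = 40) at 4 months lay far above the library median of 11.2. The summed level of the stroma markers was also highest in these mice at 4 months (44.4 CPM in 4mo28 and 44.0 in 4mo26) and lowest in 4mo29 (10.2) and 4mo3 (9.06), against 8.43 to 25.2 at 2 months. Of the 8 stroma markers tested, 7 lay above 0, 3 were higher at an unadjusted p under 0.05 over mice and 0 were called, while Dcn, Lum and Postn had counts in fewer than 5 libraries each. Of all 24847 genes tested, 13863 lay above 0 and 1254 (5.05%) were higher at that p over mice. Mouse 4mo26 had the lowest sum of cumulus markers as well (11970 CPM, against 14470 to 21650 in the other mice at 4 months), and the part of these levels in the result was not tested. Col9a2, a chain of type IX collagen, reached 29.9 CPM in mouse 4mo26 and 20.7 in 4mo28 and was at 0 in 4mo29 and 4mo3, against 0.946 to 3.92 at 2 months. Ccbe1, a matrix protein that acts in lymphatic growth, reached 64.2 CPM in mouse 4mo26 and was at 1.59 in 4mo29, against 5.96 to 14.2 at 2 months. The log2 fold changes of the 3 were 2.48 ± 0.62, 2.40 ± 0.62 and 1.52 ± 0.39, with adjusted p of 0.0398, 0.047 and 0.0443. Each lost its call without any 1 of 7, 9 and 9 mice. Mice 4mo26, 4mo28 and 4mo29 were all on plate B2. On B1 and B2 the log2 fold changes were 1.83 and 3.52 for Itih5, 2.63 and 2.15 for Col9a2 and 1.64 and 1.33 for Ccbe1. In mice at 2 months without hyperovulation the 3 genes stood at 91.8 ± 142, 21.4 ± 24 and 33.6 ± 26.2 CPM (SD, n = 32). This is above their levels at 2 months with it (11.3, 1.59 and 8.63 in the same normalisation). At 14 months they stood at 3.05, 0.483 and 8.32. No test was run on these levels.

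Fgd5, which encodes an exchange factor for CDC42, and Megf6, both called but under 5 CPM on average and singled out after their values were seen, were highest in the same mice: Fgd5 reached 31 CPM in mouse 4mo28 and 24.2 in 4mo26, and Megf6 23.7 and 17.2. At 2 months no mouse passed 1.45 CPM for Fgd5 and 1.57 for Megf6, and in mice 4mo29 and 4mo3 Fgd5 was at 0. Slc38a3, the amino acid transporter through which cumulus cells feed alanine and histidine to the oocyte, just missed the threshold (log2 fold change 1.93 ± 0.51, adjusted p = 0.0502), with 7.89 to 89.9 CPM by mouse at 2 months and 5.82 to 252.5 at 4 months, highest in 4mo26. Ghr, the growth hormone receptor, also missed it (2.06 ± 0.55, adjusted p = 0.0527), with 53.7 CPM in mouse 4mo26, 45.0 in 4mo28 and 1.06 in 4mo29.

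A second set was highest in mice 4mo28 and 4mo29, both on plate B2. Cd68, a lysosomal glycoprotein known from macrophages (chromosome 11, 69664213 to 69666153), stood at 1.79, 1.89, 2.35, 2.89 and 8.52 CPM in the mice at 2 months and from 5.94 through 9.2 to 27.5 at 4 months, with mouse 4mo29 at 20.6. The log2 fold change was 1.5 ± 0.34 (adjusted p = 0.024). Of the other markers of blood and immune cells, Ptprc, Adgre1, C1qa and C1qb, which define leukocytes and macrophages, had counts in fewer than 5 of the 64 libraries each, and none of the 10 others tested was called. The summed level of the whole list, Cd68 included, ran from 12.8 to 107 CPM by library at 2 months and from 12.6 to 161 at 4 months. By mouse it was highest in 4mo29 (123.4 CPM), next in 4mo5 (92.4) and 2mo1 (88.6), and stood at 60.7 in 4mo28. Of the 11 members tested, 8 had a log2 fold change above 0, beside 13863 of all 24847 genes tested. The part of these levels in the result was not tested. Milr1, an immunoglobulin-like receptor known from mast cells, ran from 3.88 through 8.1 to 24.3 CPM and from 9.22 through 23.4 to 111, and overlaps Polg2 on the other strand. The unnamed models Gm47111 and Gm44045 were highest in the same pair of mice, Gm47111 at 14.3 and 17.7 CPM and Gm44045 at 48.8 and 37.8. Gm26532, which overlaps Mir24-2, was highest in 4mo28 (39.3 CPM) and 4mo25 (33.5), with 4mo29 at 28.6. The log2 fold changes of these 3 models were 1.66 ± 0.41, 1.07 ± 0.24 and 1.43 ± 0.28 (adjusted p = 0.0398, 0.0271 and 0.0102). On plates B1 and B2 the log2 fold changes were 0.96 and 2.61 for Cd68, 1.02 and 2.37 for Milr1 and 1.03 and 2.27 for Gm26532. They were 1.25 and 2.36 for Gm47111 and 0.80 and 1.57 for Gm44045. No edgeR test of that difference over libraries passed (adjusted p from 0.476 for Cd68 to 0.746 for Gm47111). At 9 and 14 months Cd68 stood at 5.67 and 4.68 CPM and Milr1 at 9.99 and 10.7, against 12.6 and 42.0 at 4 months in the same normalisation.

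Other higher genes were not placed in these sets, although some shared their high mice. Ank2 and Tfpi were highest in mouse 4mo26 (99.8 and 18.1 CPM) and next in 4mo28 (64.65 and 12.9), as in the Itih5 set. At 4 months Ank2 was also lowest in 4mo29 (32.3) and 4mo3 (38.8), while Tfpi was lowest in 4mo25 (7.05). Tfpi, which encodes the tissue factor pathway inhibitor of blood clotting, stood at 1.26, 2.68, 4.65, 5.75 and 6.07 CPM at 2 months and from 7.05 through 7.83 to 18.1 at 4 months, without overlap. Its log2 fold change was 1.13 ± 0.24 (adjusted p = 0.0163) over libraries and 1.16 ± 0.25 over mice (unadjusted p = 0.000241), and it passed under the mouse block (0.0406). Without mouse 2mo1, 2mo2 or 2mo36 the adjusted p was 0.0509, 0.0859 or 0.0554. Ank2, which encodes ankyrin-B, a membrane-cytoskeleton adaptor, ran from 18.6 through 22.6 to 34.7 CPM and from 32.3 through 56.7 to 99.8, and only mouse 4mo29 overlapped the mice at 2 months (log2 fold change 1.13 ± 0.25, adjusted p = 0.0223). Its call was lost without mouse 2mo1, 2mo2 or 2mo36 (adjusted p = 0.0601, 0.0859 or 0.0554), and it did not pass under the mouse block (0.14). The small nucleolar RNA gene Gm25835 and the unnamed model Gm38036 rose by 1.07 ± 0.26 and 1.36 ± 0.33 on the log2 scale (adjusted p = 0.0363 each). Both were highest in mouse 4mo28, at 15.4 and 24.5 CPM. Each lost its call without any 1 of 7 mice, among them 4mo28 (0.0882 and 0.0544). The adjusted p was highest without mouse 2mo36 (0.105 and 0.113). The smallest adjusted p of all belonged to ENSMUSG00000095041, for which the tables used here give no symbol. It stood at 43.1, 54.3, 59.0, 75.4 and 89.4 CPM at 2 months and from 89.4 through 102 to 119 at 4 months, with 1 mouse at 4 months just below the highest at 2 months. This was a log2 fold change of 0.68 ± 0.11 (adjusted p = 0.000265) that held without any 1 mouse (at most 0.0138) and under the mouse block (0.000971), although 87.5% of its nonzero counts were not whole.

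A few further genes were singled out after their values were seen. Rbm3, a cold-inducible RNA-binding protein, rose by 0.30 ± 0.06 on the log2 scale (adjusted p = 0.00611), from 83.9 to 99.2 CPM by mouse at 2 months to 98.7 to 129 at 4 months. Its call held without any 1 mouse (at most 0.0421), but 100% of its nonzero counts were not whole. In the first set Rbm3 went the other way, with a middle-against-young log2 fold change of -0.24 that did not pass in edgeR over libraries (adjusted p = 0.0987). Cirbp, the related cold-inducible protein, rose by 0.55 ± 0.13 (adjusted p = 0.0383) and lost the call without mouse 2mo36 (0.109). Vapa, a tether between the endoplasmic reticulum and other membranes, fell by 0.22 ± 0.05 on the log2 scale, from 162 to 177 CPM by mouse to 129 to 159, without overlap. Acsl4, which activates long-chain fatty acids, and Elovl6, which elongates them, fell by 0.35 ± 0.09 and 0.37 ± 0.10, also without overlap between the mice. The calls of these last 3 genes (adjusted p = 0.0285, 0.0452 and 0.0489) were lost without mouse 2mo36 (0.0988, 0.177 and 0.177).

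Gene lists were then read for what pathways did as groups. Each list is described by its counts and its median, beside the same over all genes, since the lists were put together with earlier results of these data known. Members named below that were not called were singled out after their values were seen. Over all genes with a mean of at least 5 CPM, 558 of 12035 (4.64%) were higher and 661 (5.49%) lower at an unadjusted p under 0.05 over mice, and 49.6% had a log2 fold change below 0. Over libraries the shares at that level were 8.52% higher and 7.32% lower.

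**Figure D3:**
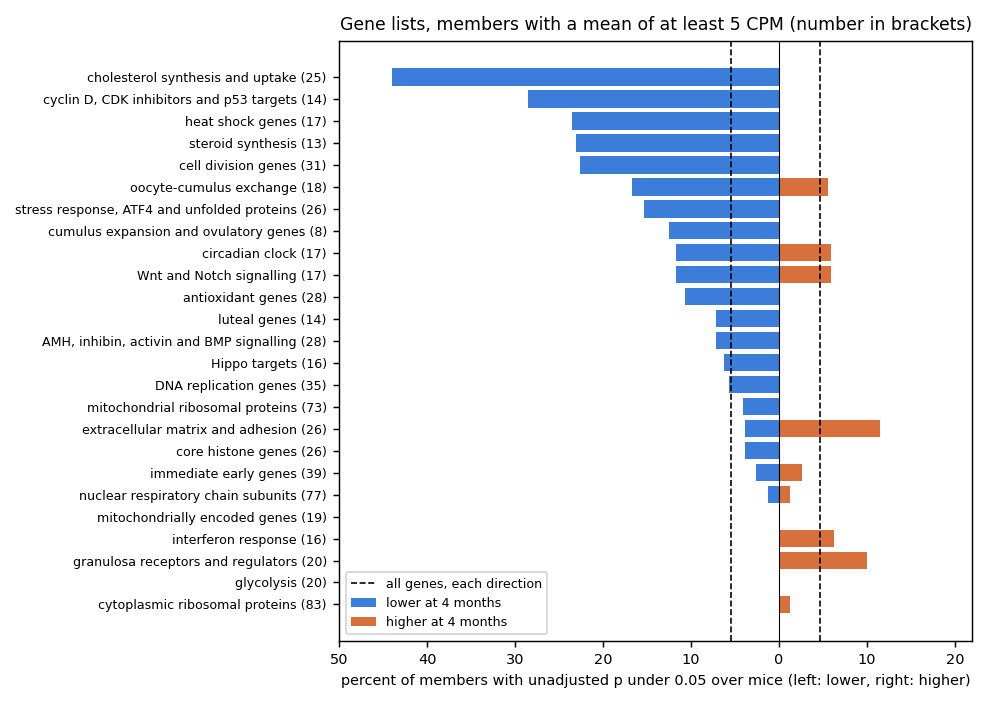
Percent of the members of each gene list, among those with a mean of 5 CPM or more (number in brackets), that had an unadjusted p under 0.05 over mice, lower at 4 months to the left and higher to the right. Dashed lines mark all genes at that level (5.49% lower and 4.64% higher), and the cholesterol list reaches furthest to the left, with 11 of 25 members.

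Genes of cholesterol synthesis and uptake had log2 fold changes below 0 in nearly every case, but none passed edgeR's test as run here. These genes are switched on together by the factor SREBP2 when sterols run short. Of the 26 tested, 0 were called in edgeR over libraries or over mice, 25 had a mean of at least 5 CPM, and 24 of these (96%) had a log2 fold change below 0, with a median of -0.26 against 0.0014 for all genes at that level. At an unadjusted p under 0.05 over mice, 11 of the 25 were lower and 0 higher. Stard4, which carries cholesterol between membranes, came nearest, at 128.5 ± 40.4 CPM (SD, n = 24) and 85.2 ± 38.2 (SD, n = 40), with a log2 fold change of -0.58 ± 0.16 and an adjusted p of 0.0527. It passed with DESeq2 (0.0306) and in edgeR without mouse 2mo34 (0.0254) or 4mo25 (0.0377). Over libraries 1 member was called lower with DESeq2, with filterByExpr and without mouse 4mo25, 4mo29 or 4mo3, and 2 without mouse 2mo34, while over mice no alternative called any. Hmgcs1, the synthase at the head of the pathway, had -0.42 ± 0.18 (adjusted p = 0.244). Ebp, a sterol isomerase, was the only one above 0, at 0.10 ± 0.13.

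By mouse the summed list stood at 3142, 3931, 4119, 4644 and 4759 CPM at 2 months. At 4 months it was 1542 in mouse 4mo26, then 2494, 3008, 3012, 3501, 3715, 3992 and 4120, so the groups overlapped. Mouse 4mo26 was also lowest in Stard4 (43.9 CPM against 70.7 to 125 in the other mice at 4 months). Without that mouse 24 of the 25 members still lay below 0, with a median of -0.21 over libraries. Over every mouse left out in turn the number below 0 was 23 or 24 and the median between -0.33 and -0.21. Within plates it was 23 of 25 on B1 and 24 on B2, with medians of -0.25 and -0.36. The number at an unadjusted p under 0.05 moved more, from 12 over libraries to 4 without mouse 2mo2 and 6 without mouse 2mo36. These genes are regulated together, so the members are not independent of each other.

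**Figure D4:**
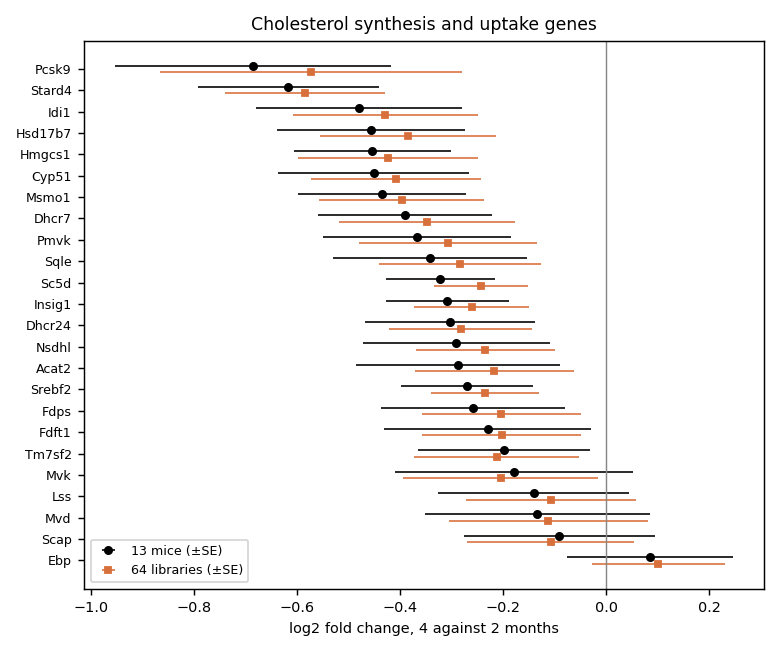
Log2 fold change (4 against 2 months, horizontal axis) of 24 genes of cholesterol synthesis and uptake over 13 mice (black) and 64 libraries (orange), with bars of 1 SE. Over libraries Stard4 lies lowest at -0.58, and Ebp is the only member above 0 in either fit (0.10 over libraries).

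The promoters of the list were searched for the motif CACNCCAC, a core of the sterol response element, on both strands in the 250 bases before the RefSeq start. It was found in 3 of the 18 list members with a promoter sequence, Hmgcs1, Acat2 and Insig1, and in 1634 of 27025 gene symbols (6.05%) overall. The Hmgcs1 stretch is shown as the example that lies in no annotated exon, with the match in capitals (RefSeq, GRCm38.p6, chr13:119690175-119690262, plus strand).
Hmgcs1: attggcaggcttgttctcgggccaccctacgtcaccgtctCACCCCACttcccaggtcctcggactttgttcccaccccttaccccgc
A match is a match of letters only, and the absence of one says no more than that these letters are not in the window.

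Genes of cumulus expansion and ovulation included 1 called gene, Adamts1, among the 22 tested. Of the 22, 4 were lower at an unadjusted p under 0.05 over mice and 0 higher, and the list's median was -0.19 against 0.04 for all genes tested. The 3 beside Adamts1 were Ptgs2, Ptx3 and Tnfaip6, with mean levels under 5 CPM. Ptgs2, the prostaglandin synthase, stood at 4.94 ± 4.54 CPM (SD, n = 24) and 2.19 ± 2.11 (SD, n = 40), Ptx3, pentraxin 3, at 1.32 ± 2.43 and 0.252 ± 0.574, and Tnfaip6, which crosslinks hyaluronan, at 3.05 ± 3 and 1.13 ± 1.66. Their adjusted p values were 0.0854, 0.0547 and 0.1. Has2, the hyaluronan synthase, stood at 6.43 ± 8.16 and 3.33 ± 3.84 CPM (adjusted p = 0.363). By mouse Ptgs2 ran from 1.31 to 10.4 CPM at 2 months and from 0.865 to 3.23 at 4 months. At 2 months Ptgs2 was highest in mouse 2mo36 (10.4) and next in 2mo2 (8.05). Mouse 2mo1 was the highest for Ptx3 (4.1 CPM, next 1.19), for Tnfaip6 (6.31, next 4.47) and for Has2 (19.2, next 8.65). The summed level of mural and ovulating granulosa markers was 322 CPM in mouse 2mo2 and at most 177 in the other 4 mice at 2 months, and its part in the result was not tested. Vcan, the proteoglycan versican, stood at 849.7 ± 188 and 752.1 ± 242 CPM (adjusted p = 0.46).

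Genes of cell division were lower in nearly every case by small amounts and none was called. Of 31 tested, all averaging 5 CPM or more, 29 had a log2 fold change below 0, 7 were lower and 0 higher at an unadjusted p under 0.05 over mice, and the median was -0.11. Cdc20, an activator of the anaphase-promoting complex, had -0.24 ± 0.07 (adjusted p = 0.0968), Aurka, a spindle kinase, -0.29 ± 0.09 (0.0902), and Top2a, the topoisomerase of dividing cells, -0.22 ± 0.08 (0.137). Mki67 stood at 467.7 ± 79.1 and 463.1 ± 130 CPM, with -0.05 ± 0.07 (0.811). Of 35 DNA replication genes 26 lay below 0 and 2 were lower over mice. Cdkn1a, the inhibitor p21 that p53 induces, lay at 21.3 ± 10.2 and 12.9 ± 10.1 CPM, with -0.68 ± 0.20 (adjusted p = 0.0691).

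In the list of ATF4 targets and the response to unfolded proteins, 2 of 29 were called lower (Mthfd2 and Sesn2, above) and 4 of the 26 with a mean of at least 5 CPM were lower over mice. Heat shock genes had 0 of 18 called, with Hsph1 at -0.35 ± 0.10 (adjusted p = 0.0613), Hsp90aa1 at -0.26 ± 0.07 (0.0691), Hspa8 at -0.15 ± 0.06 (0.203) and Hspa4l at -0.26 ± 0.11 (0.272). For Hsp90aa1 the mean at 2 months was lifted by mouse 2mo36 at 746.3 CPM, where the other 4 stood at 387.3 to 517.7 and the mice at 4 months at 344.9 to 460.2. Of the 18 heat shock genes, 11 differed among the mice at 2 months, beside 1292 of 20828 genes (6.20%) in all. That fit held no term for plate, so plates and mice are not told apart in it. The summed list at 2 months stood at 4540, 4289 and 4828 CPM in mice 2mo1, 2mo2 and 2mo34 on B1. On B2 it stood at 5852 in mouse 2mo35 and 7048 in mouse 2mo36. Immediate early genes, which are sensitive to handling of the tissue, had 0 of 45 called, and Fos stood at 2343 ± 1020 and 2697 ± 920 CPM (log2 fold change 0.24 ± 0.15, adjusted p = 0.502).

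The lists of hormone action and of exchange with the oocyte held 1 called gene. Igf1, the growth factor that granulosa cells make and answer to, rose by 0.27 ± 0.07 on the log2 scale (adjusted p = 0.0457), with 223 through 287 to 360 CPM by mouse at 2 months and 288 through 343 to 397 at 4 months, where the ranges of the groups overlapped. It lost the call without any 1 of 7 mice. Its receptor gene Igf1r had 0.18 ± 0.07 (adjusted p = 0.194). The FSH receptor gene Fshr stood at 137 ± 37.9 and 135.7 ± 44.1 CPM (-0.01 ± 0.12, adjusted p = 0.981). Kitl, the ligand by which granulosa cells act on the oocyte, had -0.41 ± 0.17 (0.228). None of the 34 genes of AMH, inhibin, activin and BMP signalling, the 17 of steroid synthesis, the 23 of glycolysis, the 37 mitochondrially encoded genes, the 38 of matrix and adhesion or the 31 of the interferon response was called in edgeR. At an unadjusted p under 0.05 over libraries these lists held 6, 0, 0, 1, 8 and 1 higher genes and 2, 3, 1, 0, 2 and 1 lower. Of all 24847 genes tested, 2177 were higher and 1199 lower at that p, and nothing is read from these list counts. In glycolysis 16 of 20 genes at 5 CPM or more lay below 0, with a median of -0.18, and Ldha stood at 2369 ± 512 and 1966 ± 900 CPM (-0.25 ± 0.16, adjusted p = 0.521). Among 84 cytoplasmic ribosomal protein genes 1 was called, Rps24 (0.22 ± 0.05, adjusted p = 0.0388), and 98.4% of its nonzero counts were not whole. Among 21 clock genes 1 was called, Npas2, with no count in any of the 24 libraries at 2 months and 27 counts over 8 of 40 at 4 months, while the oocytes held 91.8 ± 13.9 and 87.1 ± 14.6 CPM (SD, n = 24 and 39).

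The libraries had the markers of cumulus cells. All 15 cumulus and granulosa markers were tested and none called, and their sum ran from 11100 to 22700 CPM at 2 months and from 9520 to 26300 at 4 months. Of the 15 oocyte markers, Bmp15, Nlrp5, Dppa3 and Oosp1 had no count in any of the 64 libraries, and the summed level had a median of 16.2 CPM and a maximum of 69.6, against a median of 23690 in oocytes. Dcn, Lum and Postn of stroma, Tek, Emcn and Plvap of endothelium and Insl3, Hhip, Enpep and Tcf21 of theca each had counts in fewer than 5 libraries. The sums of stroma markers ran from 3.93 to 54.6 CPM at 2 months and 2.37 to 126 at 4 months, those of endothelium from 3.41 to 53.7 and 1.14 to 65.4, and those of theca from 117 to 274 and 118 to 429. In an exact permutation test within plates over mice (two-sided, over 13 measures), none of these sums passed, and the nearest was that of the ovarian surface and epithelium (p = 0.0552, adjusted 0.239).

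No difference in depth was detected in that test, with totals of 861500 ± 57530 counts (SD, n = 5 mice) and 863100 ± 46460 (n = 8; exact permutation p = 0.956). The number of genes with a count was 17530 ± 222 and 18020 ± 242 (SD, n = 5 and 8 mice), a difference of 488 with an exact permutation p of 0.0114 and 0.0741 after adjustment over the 13 measures. The share of counts in TEC gene models was 0.784% ± 0.0635 and 0.912% ± 0.0822 (n = 5 and 8 mice, exact permutation p = 0.00762, adjusted 0.0741). Both measures moved with the calls, and their part in the result was not tested beyond fitting them: with the number of genes as a covariate 28 genes were called over libraries and with the TEC share 304.

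Few of the called genes were also called in the first set. There the comparison of 15 young and 16 middle-aged cumulus libraries, from other mice, at 2 months for the young and 9 months for the middle-aged, called 123 of 22744 genes higher (0.541%) and 169 lower (0.743%). All first-set p values here took libraries as replicates. The young libraries came from 2 mice, 12 of them from mouse Young2, and the middle-aged ones from 4 mice. Of the 90 genes called higher at 4 months and tested there, 7 were called higher in middle age and 0 lower, namely ENSMUSG00000095041, Krba1, Gm10439, Gm15091, Trim30d, Lmo7 and Gm15127, so 3 of the 7 were copies of the X-linked cluster. All 6 tested models of that cluster were called higher in middle age, with adjusted p from 1.43e-06 to 0.00147 and log2 fold changes from 3.22 to 5.11. Of the 38 genes called lower at 4 months, 1, Rabggtb, was called lower in middle age. By direction alone 71 of the 90 higher genes were higher in middle age and 31 of the 38 lower genes lower, beside 12183 higher and 10113 lower of all 22301 genes tested in both sets. Rabggtb stood at 68.7, 50.5, 70.9 and 67.8 CPM at 2, 4, 9 and 14 months in the second set, so that its level at 4 months was the lowest of the 4, and ENSMUSG00000095041 at 67.0, 104.8, 160.2 and 123.4 CPM.

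The number of calls over libraries moved with the mice and the test used more than with the normalization. Leaving out 1 mouse at a time gave between 6 calls (without 2mo36) and 623 (without 2mo34), and the fit with the mouse as a correlated block gave 15, all among the 137. On plate B1 alone 4 genes were called and on B2 alone 6, with 1 and 4 of them among the 137. The interaction of age and plate passed for 0 genes over mice in edgeR (1210 at an unadjusted p under 0.05) and for 1 over libraries. Leaving out mouse 2mo2 ended 23 of the 24 calls named above by the fixed rule, mouse 2mo1 or 2mo36 21 each, mouse 4mo5 17, mouse 2mo35 16, mouse 4mo28 14 and mouse 4mo25 13, while mouse 2mo34, 4mo27, 4mo26, 4mo29, 4mo3 or 4mo4 ended at most 4. For these 24 genes no fold change turned its sign in any of these fits.

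**Figure D5:**
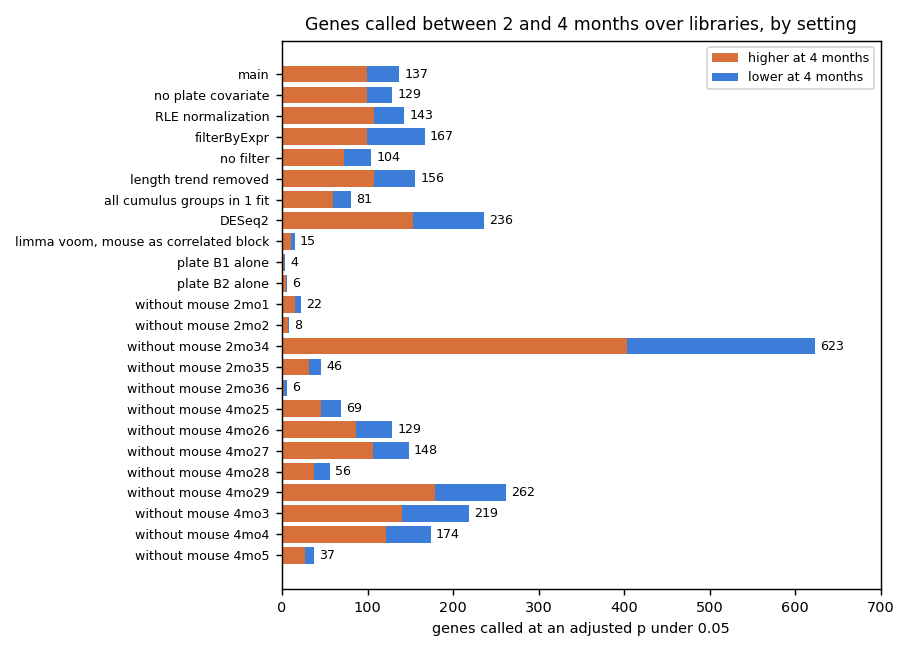
Number of genes called between 2 and 4 months over libraries (horizontal axis) under each alternative, split by direction. The count as reported (marked main) is 137, and it runs from 4 on plate B1 alone to 623 without mouse 2mo34.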

How the data were processed

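The authors deposited expected counts per gene, made with Fastq-mcf, HISAT2 2.0.5 and featureCounts 1.5.1 on GRCm38 with GENCODE annotation, in which reads with several places are shared among them, so 33.3% of the nonzero counts were not whole. Strand was not kept and no molecular identifiers were used. The deposited RPKM values of the authors, scaled to gene length and library size, served here only to recover gene lengths.

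Counts were rounded to whole numbers for the tests, since the design had assumed raw counts. The table held 42349 genes, of which 42147 identifiers were found in GENCODE vM21. Genes counted in 5 or more of the 64 libraries were tested with the edgeR 4.0.16 quasi-likelihood test (R 4.3.3, TMM normalization, plate as covariate), with p adjusted by Benjamini-Hochberg and a threshold of 0.05, once over libraries and once over counts summed per mouse. CPM were computed with the same scaling. Alternatives used DESeq2 1.42.0, limma 3.58.1, other filters and normalizations, single plates and each mouse left out. Library measures were compared by exact permutation of mice within plates with scipy 1.17.1. Scripts were tested on simulated data.

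Genes were named by rule: among called genes with a mean of at least 5 CPM, the 12 highest and 12 lowest log2 fold changes, plus called members of each gene list. The members and lists were chosen with earlier results of these data known. Among 2016 pairs of libraries none agreed within sampling noise (smallest chi-square per degree of freedom 1.85), so all were kept. Libraries held 510029 to 1147286 counts, and intervals of low genes are set by this depth. Tables of sequence came from RefSeq on GRCm38.p6. The labels do not say what B1 and B2 are, and nothing here tells whether the mice of a group were handled on separate days. Values of a few single genes are not reported here.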

Additional observations from a re-analysis of the deposited data

Results flagged for a closer look

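Among 74 groups of mice tested for a sample far from the rest, 7 such values were found, each in a different group, where chance alone flags about 1 in 20. The flagged values belong to named genes, which were chosen by their difference in these data, and to library measures of the same mice. The groups are thus not independent, and the 7 flags are not weighed against that rate. Mouse 2mo34 was the highest at 2 months for Cd68 (8.52 CPM, next 2.89) and the lowest for Rabggtb (46.2, next 78.9). Mouse 2mo2 was the lowest for Gjc1 (2.98, next 9.15), the highest for Prdm1 (37.9, next 13.8) and the highest for the summed markers of mural and ovulating granulosa cells (322 CPM, next 177). Mouse 2mo36 had the lowest share of counts in TEC gene models (0.676%, next 0.797%). Mouse 4mo29 had the highest sum of endothelium markers (34.5 CPM, next 21.4).

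For Ptgfr, the receptor of prostaglandin F2 alpha, the difference between the ages differed between the plates over libraries, by -6.57 on the log2 scale (B2 minus B1, edgeR adjusted p = 0.0148), and over mice it did not pass (adjusted p = 0.925). Ptgfr stood at 6.53 CPM in mouse 2mo35, where 1 library reached 23.5, and at 3.51 and 2.45 in mice 4mo4 and 4mo5, while every other mouse was below 1 CPM.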

How the results depend on the processing

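No paired analysis was possible because the mice at 2 and 4 months share no numbers. Over libraries the 137 calls became 129 without the plate, 143 with RLE scaling, 167 with filterByExpr (99 higher and 68 lower, against 99 and 38), 104 with no filter and 156 with the length trend removed, of which 115, 135, 78, 102 and 134 were among the 137. They became 81 with all cumulus groups in 1 fit, 236 with DESeq2 (88 among the 137), 15 with the mouse as a correlated block in limma voom, 4 on plate B1 and 6 on B2. Choices added after seeing the data gave 28 calls with the number of genes with a count as a covariate and 304 with the TEC share. Leaving out each mouse gave 6 to 623 calls. Over mice the 0 calls became 4 with no filter and 6 with DESeq2, and 0 to 3 with each mouse left out. The age by plate interaction gave 0 calls over mice and 1 over libraries. The cause of these moves was not tested. For the 24 named genes, 352 of 594 values over libraries stayed on their side of the threshold, 242 did not, and 0 changed sign. At this depth the genes with few counts cannot be measured one by one.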
